A study of Drosophila melanogaster with 90 samples.

Results

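The oxidative phosphorylation genes described here were the nuclear genes whose FlyBase symbols begin with ND-, UQCR-, COX and a digit, or ATPsyn, and whose mean level over all 90 libraries was at least 1 CPM (a gene's counts scaled to a common library size). Of 17493 genes with a count row, 80 had such a symbol and 57 passed the minimum, namely 32 of complex I, 6 of complex III, 8 of complex IV and 11 of complex V. The gap at the minimum was wide, since the nearest gene below it, ATPsynepsilonL, averaged 0.448 CPM and the nearest above it, ND-AGGG, averaged 7.18 CPM.

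Oxidative phosphorylation takes place in the inner mitochondrial membrane. Complexes I, III and IV pass electrons from NADH to oxygen and pump protons out of the matrix, and complex V, the ATP synthase, lets the protons back in to make ATP. Most subunits are encoded in the nucleus and imported, while a small set of core subunits is encoded by the mitochondrial genome. In the Drosophila ovary the germline builds up the mitochondria that the egg inherits, and the somatic follicle cells and the muscle sheath around the ovarioles carry mitochondria of their own.

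The study sequenced polyA RNA from ovaries of females carrying lesions in sov (small ovary), an X-linked gene for a nuclear zinc-finger protein, or expressing a hairpin against it. Each of 30 genotypes had 3 libraries, each from 15 ovaries of adults aged 4 to 5 days kept at 25 °C. The question taken from the labels was how ovary transcripts differed between fertile controls and females with sov mutations or knockdown, and here it was asked of the respiratory genes. Nothing in the labels says whether the 3 libraries of a genotype came from separate crosses. The p-values measure the spread between genotypes in the class comparisons and between these libraries in the RNAi comparisons.

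The 10 control genotypes had at least 1 wild-type copy of sov on a w1118 chromosome: w1118/w1118, Dfsov/w1118, sovEA42/w1118, sovML150/w1118, sov2/w1118, w1118/sov2, KG00226/w1118, w1118/KG00226, NP6070/w1118 and w1118/NP6070. The 7 sterile mutants were Dfsov/KG00226, Dfsov/sov2, sovEA42/KG00226, sovEA42/sov2, sovML150/KG00226, sovML150/sov2 and NP6070/NP6070. The 7 fertile mutants were KG00226/KG00226, KG00226/NP6070, NP6070/KG00226, KG00226/sov2, sov2/KG00226, NP6070/sov2 and sov2/NP6070. Df(1)sov is a deficiency of the sov region and was carried with w1118, as was the sovML150 allele. KG00226 is a P{SUPor-P} insertion on a y[1] chromosome, NP6070 is a P{GawB} insertion on a chromosome marked y and w, and sov2 was on a chromosome also marked y[1], cv[1], v[1] and f[1]. No mutant genotype carried the plain w1118 chromosome that every control had. The knockdown ovaries carried the TRiP.HMC04875 hairpin against sov at attP40 and their controls carried a VALIUM20-mCherry hairpin at attP2, so the hairpins also differ in insertion site. Both were driven by da-Gal4, which is expressed broadly, nos-Gal4 (GAL4::VP16-nos.UTR), which is expressed in the germline, or tj-Gal4 (NP1624), which is expressed in the somatic cells of the ovary.

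The median library held 4346724.5 gene counts, the deepest 13164806 and the shallowest 2110, and those under 100000 were 3, namely 1 each of sov2/w1118, Dfsov/sov2 and sovML150/KG00226. The sov row (taken as FBgn0029899, the one of the 2 identifiers in every label that had counts) lay at 98.9 to 196.8 CPM in controls, 122.8 to 239.8 CPM in fertile mutants and 84.6 to 313.5 CPM in sterile mutants. With the sov hairpin the sov row fell by 0.49 (SE 0.12) on the log2 scale under da-Gal4, moved by 0.06 (SE 0.12) under nos-Gal4 and rose by 0.50 (SE 0.12) under tj-Gal4, with edgeR adjusted p of 0.00634, 0.907 and 0.00501. Because the nos-Gal4 and tj-Gal4 values do not show a lower sov level, these ovaries are called by their labels below. The fertility labels are sterile for all sov RNAi libraries and fertile for all mCherry RNAi libraries, under each driver. Sterile and fertile mutants below are the allelic genotypes only. All comparisons of classes used the counts of the 3 libraries of a genotype summed, with genotypes as replicates. The test was edgeR's quasi-likelihood test with Benjamini-Hochberg adjustment over all features tested, called at an adjusted p under 0.05. Genotypes of a class share alleles and are not fully independent. Without regard to written order, the controls hold 7 allele combinations and the fertile mutants 4, and every sterile genotype but NP6070/NP6070 carries KG00226 or sov2.

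The levels of the members spanned more than 2 orders of magnitude when compared per length. ATPsynC, which forms the proton-driven rotor ring of the ATP synthase, was the highest at 1126 CPM per kb of exon, followed by ATPsynbeta, the catalytic subunit of the F1 head, at 632 CPM per kb. The highest of complex I were ND-MLRQ, whose mammalian counterpart NDUFA4 has since been assigned to complex IV, at 322 CPM per kb, and ND-ACP, the mitochondrial acyl carrier protein, at 163 CPM per kb. UQCR-C1, a large core protein of complex III that faces the matrix, reached 303 CPM per kb and UQCR-14, a smaller subunit, 165 CPM per kb. COX7B and COX6B, small nuclear-encoded subunits of complex IV, stood at 272 and 255 CPM per kb. The lowest members were ND-AGGG at 9.63 CPM per kb and UQCR-11 at 18.6 CPM per kb, and ND-AGGG had 3514 counts in all libraries together, which makes its values the least precise.

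In control ovaries the median member of complex I stood at 65.5 to 82.4 CPM per kb over the 10 genotypes, that of complex III at 133.2 to 179.1, that of complex IV at 210.3 to 276.0 and that of complex V at 218.6 to 270.9. The ranges of complexes I and III did not overlap each other or those of the other complexes, while those of IV and V overlapped almost fully. The 57 members together took 0.93 to 1.17% of the gene counts in controls, 0.89 to 1.05% in fertile mutants and 0.85 to 1.06% in sterile mutants.

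The 21 paralogues that carry an L in their symbols were all under the minimum, 6 of complex I, 3 of complex III, 8 of complex IV and 4 of complex V. ATPsynepsilonL was the highest of them, with 4.10 CPM in its highest library. The other 2 genes left out were ND-B8, with 6 counts in all libraries, and ND-MNLL, with none. Every exon base of ND-MNLL is shared on the same strand with CG45089 in the annotation, so its count of 0 does not measure its transcript. Of the members, 54 share no exon base with another gene on the same strand. The largest shares with genes on the opposite strand were 100% of UQCR-14 (CG32576), 40.5% of UQCR-6.4 (POSH), 35.6% of ATPsyndelta (CG2962) and 26.1% of ND-B22 (CG31855). The strand setting of the counting is not given, so how far these overlaps enter the values of such members is not known.

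In sterile mutant ovaries the members were lower than in controls across all complexes. Of the 57 members, 33 fell and none rose, while over all 8449 features tested 19.8% fell and 24.6% rose. The median member change was -0.19 on the log2 scale against 0.00 over all features, and 52 members had a negative value. Complex III fell as a whole, with 6 of 6 members called and a median of -0.29, and complex V had 8 of 11 called with a median of -0.25. Complex IV had 5 of 8 called with a median of -0.23, and complex I had 14 of 32 with a median of -0.11. The plot of member changes shows the size of these shifts, most of which were under 0.5 on the log2 scale.

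**Figure D1:**
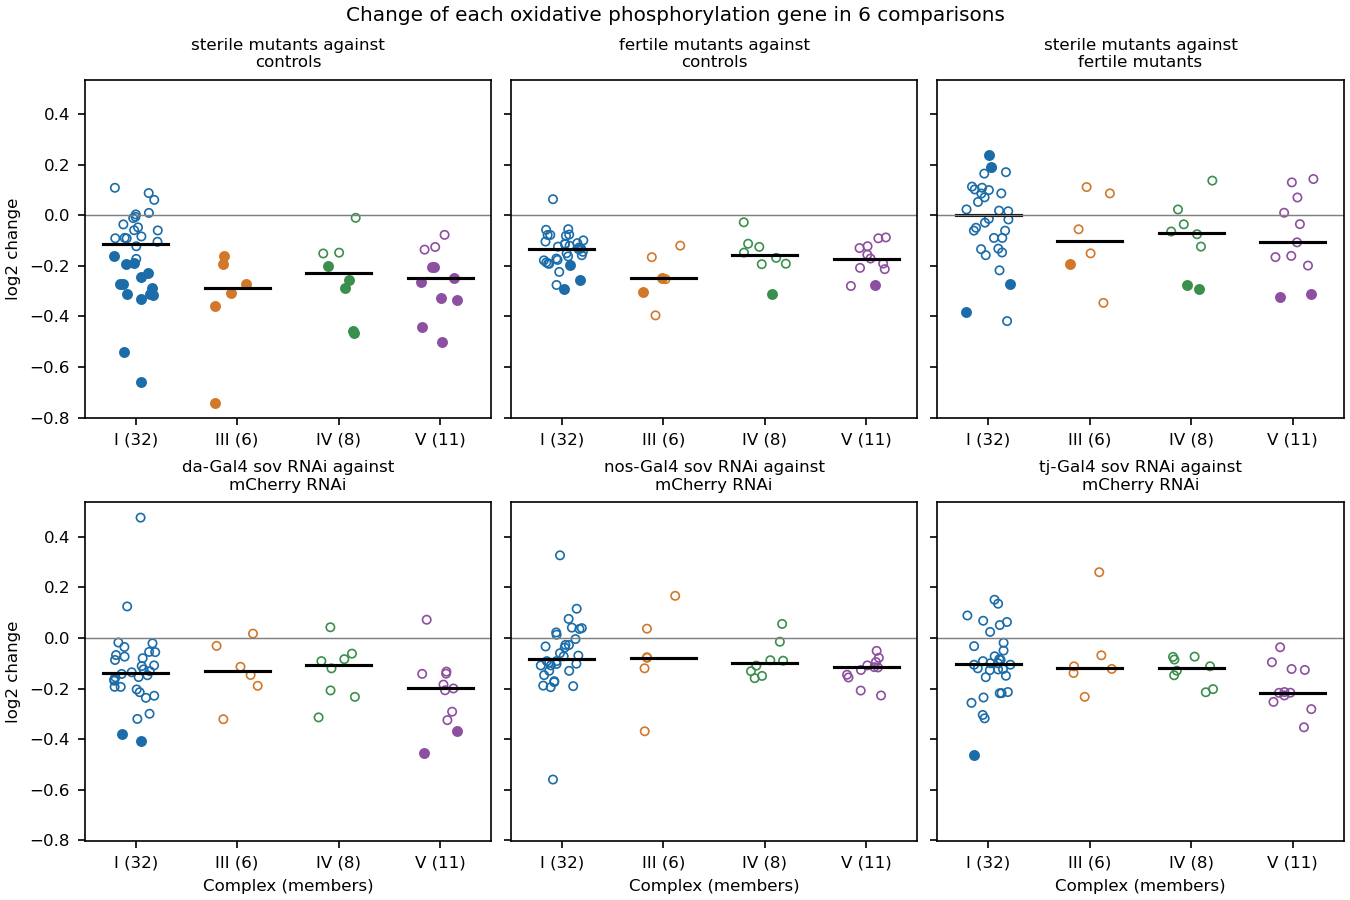
Log2 change of each member in 6 comparisons, by complex, with the number of members in brackets. Filled circles passed an adjusted p under 0.05 (edgeR), open circles did not, and bars are medians over the members of a complex; in sterile mutants against controls 33 filled circles all lie below 0, and in the nos-Gal4 panel none is filled.

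The largest fall was that of UQCR-11, a small subunit of complex III. Its level in the 10 control genotypes ran from 30.4 to 50.2 CPM with a median of 35.6, and in the 7 sterile genotypes from 16.9 to 24.8 CPM with a median of 21.9. The groups did not overlap, and the change was -0.74 (SE 0.13, adjusted p = 5.8e-05 by edgeR). UQCR-C1 fell by 0.36 (SE 0.07), from a control median of 560.5 CPM to 412.2 CPM in sterile genotypes, and UQCR-6.4, another small subunit, fell by 0.31 (SE 0.07). The smallest change of complex III that passed the test was that of the core protein UQCR-C2 at -0.16 (SE 0.06, adjusted p = 0.042).

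In complex I the largest fall was that of ND-MLRQ, from a control range of 161.4 to 252.6 CPM and a median of 199.8 to a sterile range of 78.6 to 165.8 CPM and a median of 115.3. The ranges touched, with the sterile NP6070/NP6070 at 165.8 CPM just above the control sovEA42/w1118 at 161.4 CPM, and the change was -0.66 (SE 0.13, adjusted p = 0.00039 by edgeR). ND-AGGG, an accessory subunit of the membrane arm, ran from 6.22 to 12.9 CPM in controls and from 3.76 to 9.82 CPM in sterile mutants. The ND-AGGG change was -0.54 (SE 0.20, adjusted p = 0.029) and the groups overlapped. ND-B17.2, another accessory subunit, fell by 0.33 (SE 0.09, adjusted p = 0.0049).

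The catalytic core of complex I, which holds the iron-sulphur clusters and the flavin, did not move as 1 unit. Of its 7 nuclear subunits, 3 fell, ND-49 by 0.29, ND-23 by 0.19 and ND-30 by 0.19 on the log2 scale. ND-75 and ND-51 had values of 0.01 and -0.04, ND-24 had -0.10, and ND-20 had 0.11, none past the test. The core median of -0.10 lay beside -0.12 for the 25 accessory subunits, of which 11 fell.

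In complex IV, COX8 and COX7B fell most. COX8 ran from 93.6 to 123.2 CPM with a median of 107.0 in controls and from 63.2 to 107.1 CPM with a median of 68.7 in sterile mutants, a change of -0.47 (SE 0.09, adjusted p = 0.00014 by edgeR). COX7B ran from 117.7 to 157.3 CPM in controls and from 75.4 to 116.4 CPM in sterile mutants, so its groups did not overlap, with a change of -0.46 (SE 0.08, adjusted p = 3.5e-05). For both genes the highest sterile genotype was NP6070/NP6070. COX5B fell by 0.29 (SE 0.08), and COX4, another nuclear-encoded subunit, had -0.01 (SE 0.05).

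In complex V, ATPsynbeta had a control range of 1549 to 2069 CPM with a median of 1686 and a sterile range of 709.2 to 1508 CPM with a median of 1203. The groups did not overlap, and the change was -0.50 (SE 0.11, adjusted p = 0.00066 by edgeR). ATPsynC ran from 1978 to 2674 CPM in controls and from 1159 to 2554 CPM in sterile mutants, with a change of -0.44 (SE 0.11) and with NP6070/NP6070 at 2554 CPM inside the control range. ATPsynCF6, coupling factor 6 of the peripheral stalk, fell by 0.34 (SE 0.08). The plot of 4 members shows these genotype values beside the knockdown libraries.

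**Figure D2:**
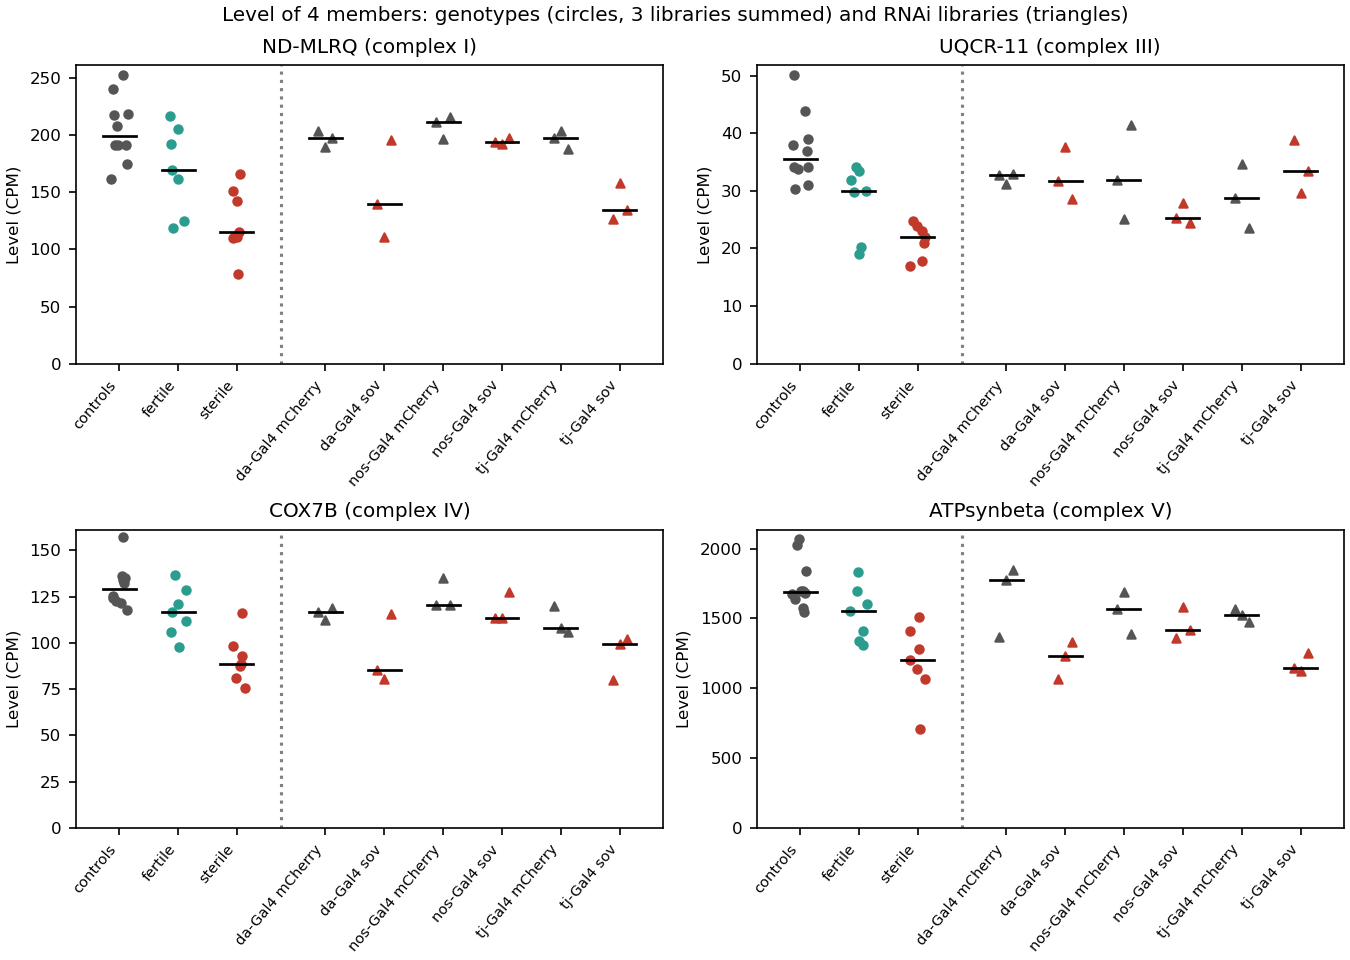
Levels in CPM of ND-MLRQ, UQCR-11, COX7B and ATPsynbeta in the 24 allelic genotypes (circles, 3 libraries summed) and in each of the 18 RNAi libraries (triangles), with bars at the medians and axes from 0. UQCR-11, COX7B and ATPsynbeta show no overlap between controls and sterile genotypes, and only ND-MLRQ was called under both da-Gal4 and tj-Gal4.

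The fall in sterile ovaries stood beside a change in the make-up of the tissue, and in bulk RNA fewer cells of a type and less RNA per cell cannot be told apart. All 16 muscle markers tested rose, and their 21 genes summed to 703.7 to 981.5 CPM in controls and 909.4 to 15831 CPM in sterile mutants. Of 4 hemocyte markers tested 3 rose, with sums of 118.7 to 206.5 CPM in controls and 125.0 to 2079 CPM in sterile mutants. Of genes of late follicle cells, 9 of 9 chorion and 6 of 7 vitelline membrane genes fell. Of 7 germline markers 4 fell and bam, which drives early differentiation, rose by 1.09, and their sums were 1852 to 2193 CPM in controls and 988.0 to 1885 CPM in sterile mutants. Of neuron markers 3 of 3 tested rose, and of fat body markers 2 of 3. The neuron marker Snap25 also rose in fertile mutants, by 3.33 (SE 0.48, adjusted p = 0.00012 by edgeR), where elav and Syx1A were not called. Between sterile and fertile mutants Snap25 differed by 0.69 (SE 0.43), which was not called. In sterile mutants no marker of these lists was at 0 in every genotype, and their part in the members' result was not tested. The values above are scaled to gene and element counts, and the labels give 200 ng of total RNA and 10 pg of ERCC spike-in per library. Scaled to the ERCC counts instead, the median of all features was -1.33 and that of the members -1.47. All 57 members fell, as did 84.1% of all features. Such values are counts per spike-in at equal total RNA, not per ovary or per cell. Leaving out any 1 genotype gave 28 to 38 members that fell, with 28 of the 33 calls kept in every case. The lowest count, without sovML150/KG00226, stood beside 1413 of 8479 features that fell. The highest, without NP6070/NP6070, stood beside 2130 of 8570.

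The sterile genotypes were far from alike. The median member change against the mean of the 10 controls was -0.35 in sovML150/KG00226, -0.33 in Dfsov/sov2, -0.28 in Dfsov/KG00226, -0.20 in sovML150/sov2, -0.18 in sovEA42/KG00226 and -0.14 in sovEA42/sov2. NP6070/NP6070, also sterile, had a median of 0.03 and 23 of 57 members below 0. Its muscle markers summed to 909.4 CPM, inside the control range, while those of the other 6 sterile genotypes summed to 2366 to 15831 CPM. Its chorion genes summed to 8339 CPM and its germline markers to 1805 CPM, both below the lowest control, at 15635 and 1852 CPM. Some fertile mutants also lay below the lowest control, down to 10249 CPM for chorion genes and 1770 CPM for germline markers. The vitelline membrane genes of NP6070/NP6070 summed to 21079 CPM, inside the control range of 7441 to 24676 CPM. The plot of complex medians by genotype shows complexes III, IV and V below complex I in each of the 6 other sterile genotypes.

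**Figure D3:**
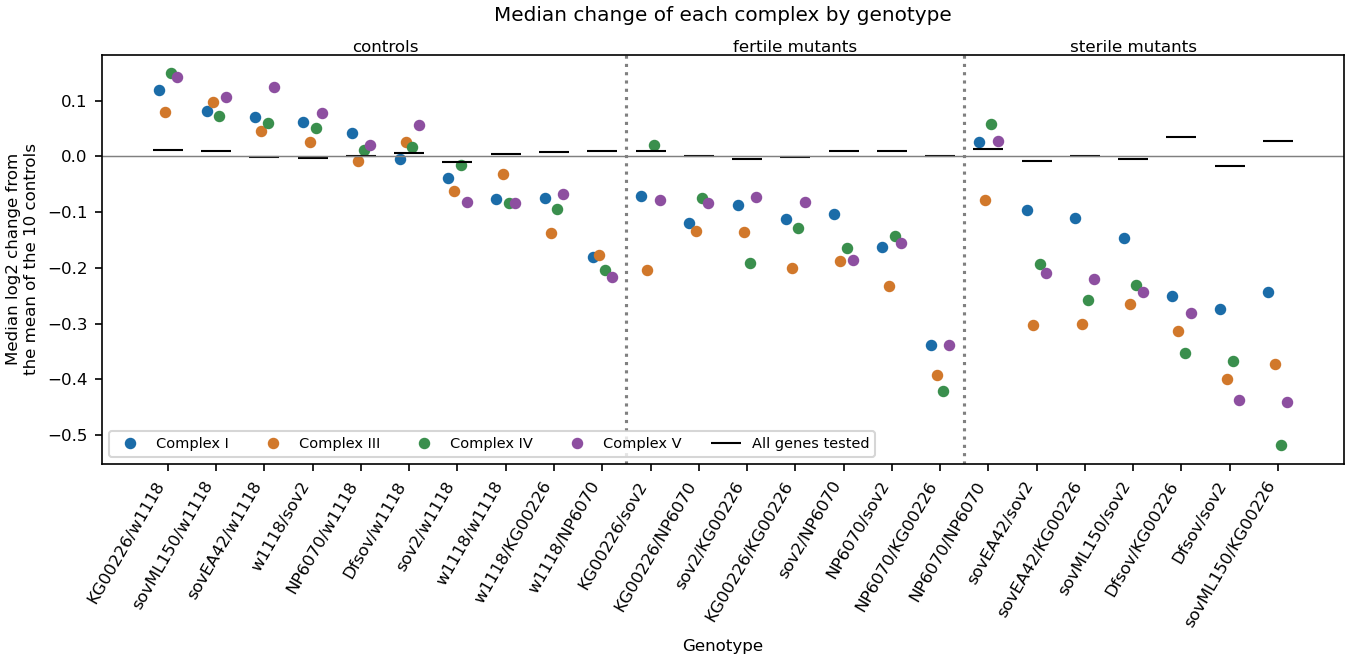
Median log2 change of the members of each complex in 24 genotypes, against the mean of the 10 controls (circles), with the median over all genes tested (dashes); genotypes are ordered within a class by the median over all members. Sterile genotypes reach -0.52 for complex IV in sovML150/KG00226, while NP6070/NP6070 lies near 0 and the fertile NP6070/KG00226 lies at -0.34 to -0.42.

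Individual genotypes held changes larger than the class means. In sovML150/KG00226 the median was -0.24 for complex I, -0.37 for III, -0.52 for IV and -0.44 for V, and ND-MLRQ was at -1.26 (SE 0.16). In Dfsov/sov2 the medians were -0.27, -0.40, -0.37 and -0.44 in the same order. UQCR-11 followed another order of genotypes than the rest. Its lowest level, 16.9 CPM, was in NP6070/NP6070, at -1.13 (SE 0.16) against the controls, where the median over all members was 0.03. Dfsov/KG00226 was next at -1.10 (SE 0.16). Among fertile mutants NP6070/KG00226 and KG00226/NP6070 had the lowest UQCR-11 values, -0.96 and -0.93, beside sov2/NP6070 at -0.32 and NP6070/sov2 at -0.09, and NP6070/w1118 had the highest UQCR-11 level of all controls at 50.2 CPM.

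**Figure D4:**
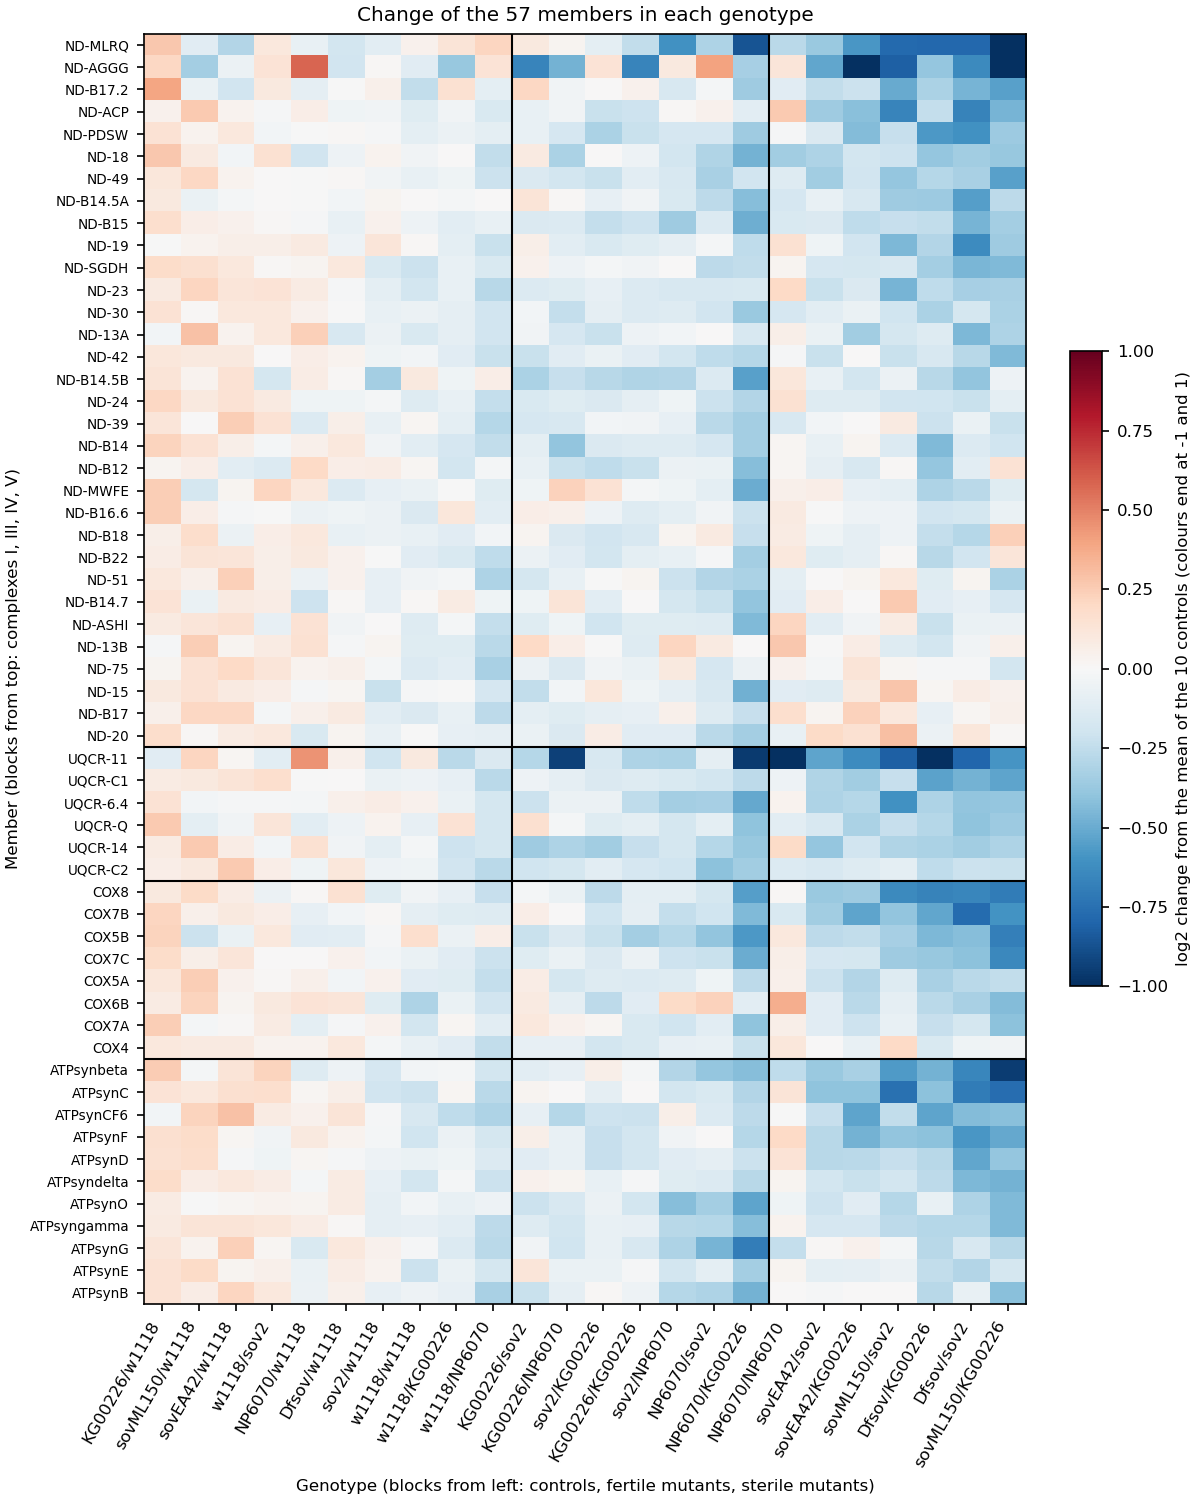
Log2 change of each of the 57 members (rows, by complex) in each of 24 genotypes (columns, by class) against the mean of the 10 controls, blue for lower and red for higher, with colours ending at -1 and 1. The sterile block is bluest at its right end, in Dfsov/sov2 and sovML150/KG00226, and UQCR-11 is dark blue also in NP6070/NP6070 and KG00226/NP6070, where most other members are pale.

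Fertile mutants were compared with the same 10 control genotypes as the sterile ones, so the 2 comparisons are not independent. Of the 57 members, 7 fell and none rose, against 1.35% of all features that fell and 2.58% that rose, and at an unadjusted p under 0.05, 30 members fell and none rose, against 7.6% and 9.56% of all features. The median member change was -0.16 against -0.01 over all features, and 56 members had a negative value, with medians of -0.13, -0.25, -0.16 and -0.17 for complexes I, III, IV and V. The members that fell were ND-B14.5B, ND-B15 and ND-49 of complex I, UQCR-14 and UQCR-C2 of complex III, COX5B of complex IV and ATPsynO of complex V. ND-49 is a core subunit near the quinone site, ND-B15 and ND-B14.5B are accessory subunits, and ATPsynO joins the F1 head to the peripheral stalk.

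ATPsynO ran from 196.9 to 226.9 CPM in the 10 controls with a median of 209.3, and from 143.3 to 206.3 CPM in the 7 fertile mutants with a median of 174.1. The groups overlapped, and the change was -0.28 (SE 0.06, adjusted p = 0.012 by edgeR). UQCR-14 ran from 81.7 to 113.9 CPM in controls and from 71.9 to 85.3 CPM in fertile mutants, a change of -0.30 (SE 0.07, adjusted p = 0.015). ND-B15 did not overlap, with 29.9 to 37.3 CPM in controls and 22.4 to 29.2 CPM in fertile mutants, and changed by -0.25 (SE 0.06, adjusted p = 0.017). ND-B14.5B changed by -0.29 (SE 0.07), COX5B by -0.31 (SE 0.08), UQCR-C2 by -0.25 (SE 0.06) and ND-49 by -0.20 (SE 0.05).

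The fertile count depended on single genotypes that carry NP6070. NP6070/KG00226 had the lowest median of the class at -0.34, with 56 of 57 members below 0, while KG00226/NP6070, which has the same alleles written in the other order, had -0.11. Without NP6070/KG00226 the count of members that fell was 2, and without NP6070/sov2 or without sov2/NP6070 it was 4. Falls over all features shrank as well, from 114 of 8449 to 54 of 8585, 60 of 8612 and 66 of 8581 in the order named. Among controls the written orders also differed, with -0.19 in w1118/NP6070 and 0.02 in NP6070/w1118. With genotypes of the same alleles summed no member was called in fertile mutants, and 21 of 9124 features fell. Muscle sums of the fertile mutants, 691.5 to 951.5 CPM, lay beside control sums of 703.7 to 981.5 CPM. Scaled to ERCC counts, all features had a median of 0.39 and the members 0.25, so the direction against controls flipped while the members stayed below the median of all features; no member was called, and 0.166% of all features fell.

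In the direct comparison of the 2 mutant classes, members were called in both directions. In sterile against fertile mutants 7 members fell and 2 rose, against 14.3% of all features that fell and 21.4% that rose. Neither count exceeded the share over all features. The member median was -0.04, and with low-depth libraries left out it was -0.04 beside -0.01 over all features. The members that fell were ND-MLRQ (-0.38), ND-B17.2 (-0.27), UQCR-C1 (-0.19), COX7B (-0.29), COX8 (-0.28), ATPsynC (-0.32) and ATPsynbeta (-0.31). The members that rose were ND-20, a core subunit with the iron-sulphur cluster next to the quinone site, at 0.24 (SE 0.07), and ND-B17, an accessory subunit, at 0.19 (SE 0.07). ND-20 ran from 63.0 to 85.9 CPM in fertile and from 75.6 to 88.2 CPM in sterile mutants, and its control range was 71.9 to 90.2 CPM. Scaled to ERCC counts both had values of -1.53, with a median of -1.73 over all features, and all 57 members fell, as did 86.7% of all features.

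The count of members that fell in this contrast was 2 without Dfsov/sov2, without sovML150/KG00226 or without sovML150/sov2, 3 without KG00226/sov2, 4 without KG00226/KG00226 or KG00226/NP6070, and 16 without NP6070/NP6070. The count that rose was 1 without Dfsov/sov2, KG00226/NP6070, KG00226/sov2, NP6070/KG00226, NP6070/sov2, sovEA42/KG00226 or sovML150/sov2, and 4 without Dfsov/KG00226. Over all 8449 features of the main fit 1204 fell and 1812 rose. Without Dfsov/sov2 982 fell and 1587 rose of 8482, and without NP6070/NP6070 1837 fell and 2094 rose of 8570. Without Dfsov/KG00226 1515 fell and 1963 rose of 8490, so the counts over all features moved as well. COX7B was the only member called in this contrast under each leave-out and each other alternative run, and ND-20 held under each leave-out.

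With the hairpin against sov under da-Gal4, 4 members fell and none rose, against 11% of all features that fell and 10.1% that rose. At an unadjusted p under 0.05, 10 members fell and none rose, against 17.7% of all features in each direction, so neither count of falls exceeded the share over all features. The median member change was -0.14 against 0.02 over all features, 52 members had a negative value, and the medians were -0.14, -0.13, -0.11 and -0.20 for complexes I, III, IV and V. ATPsynbeta was at 1364, 1776 and 1846 CPM in the 3 mCherry RNAi libraries and at 1070, 1232 and 1330 CPM in the 3 sov RNAi libraries. The groups did not overlap, and the change was -0.46 (SE 0.13, adjusted p = 0.016 by edgeR). ATPsynCF6 was at 179.0, 220.8 and 219.5 CPM against 144.3, 157.1 and 179.3 CPM, a change of -0.37 (SE 0.09, adjusted p = 0.0088), with the highest sov RNAi value level with the lowest control.

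ND-MLRQ was at 203.5, 189.3 and 197.9 CPM with the mCherry hairpin and at 139.5, 110.8 and 195.9 CPM with the sov hairpin under da-Gal4. Replicate 3 of the sov libraries reached control levels and the other 2 lay below, and the change was -0.41 (SE 0.13, adjusted p = 0.036 by edgeR). ND-SGDH, an accessory subunit of the membrane arm, was at 115.8, 155.6 and 133.1 CPM against 93.7, 97.7 and 119.8 CPM, a change of -0.38 (SE 0.12, adjusted p = 0.031). The count of members that fell changed with single libraries. It was 0, 2 and 13 without sov RNAi replicates 1, 2 and 3, and 8, 1 and 0 without mCherry replicates 1, 2 and 3. Shares over all features in these fits are not given here, so the swing is not read as particular to the members. Muscle markers summed to 1021 CPM with mCherry and 1135 CPM with the sov hairpin, and 4 of 16 tested rose. Germline markers summed to 2264 CPM with mCherry and 1700 CPM with the sov hairpin, and 3 of 7 fell, osk by 0.60, grk by 0.89 and aub by 0.49. Vitelline membrane genes summed to 13450 and 19322 CPM, with none of 7 called, and chorion genes to 20101 and 25137 CPM, with none of 9 called. The fat body marker apolpp fell by 1.35 (SE 0.42, adjusted p = 0.031 by edgeR). The part of these markers in the da-Gal4 values was not tested. Scaled to ERCC counts no member was called, 3.29% of all features fell, and the member median was -0.35 against -0.21 for all features.

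In ovaries labelled tj-Gal4 sov RNAi, 1 member fell and none rose, against 2.53% of all features that fell and 9.31% that rose, and at an unadjusted p under 0.05, 7 members fell and none rose, against 8.71% and 14.7% of all features. The single call was below the share over all features. ND-MLRQ was at 197.5, 203.8 and 188.1 CPM with the mCherry hairpin and at 126.5, 157.9 and 134.7 CPM with the sov hairpin. The groups did not overlap, and the change was -0.46 (SE 0.13, adjusted p = 0.023 by edgeR). ATPsynbeta was at 1571, 1524 and 1473 CPM against 1142, 1123 and 1249 CPM, also without overlap, but its change of -0.35 (SE 0.13) had an adjusted p of 0.082. The member median was -0.12 against -0.01 over all features, and all 8 members of complex IV and all 11 of complex V had negative values.

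Markers moved in the same libraries. Muscle markers summed to 870.8 CPM with mCherry and 3890 CPM with the sov hairpin under tj-Gal4, 15 of 16 tested rose, and 5 of 6 hemocyte markers rose. Of follicle cell genes 2 of 9 chorion and 1 of 7 vitelline membrane genes fell, and none of 7 germline markers was called. The part of these markers in the tj-Gal4 values was not tested. The call of ND-MLRQ was lost without mCherry replicate 1 or 2 or without sov RNAi replicate 1 of tj-Gal4, where the count was 0. Leaving out single da-Gal4 libraries, which share the estimate of the spread, gave 3 without mCherry replicate 1 or sov replicate 3. It gave 2 without mCherry replicate 2 or 3 or sov replicate 1. Shares over all features in these fits are not given here, so these counts are not read as particular to the members. Scaled to ERCC counts, all 57 members fell with a median of -1.47, as did 88% of all features, whose median was -1.36. By the labels every tj-Gal4 sov RNAi library had ERCC pool 78A, while the tj-Gal4 mCherry libraries had 78A or 78B. Pool and hairpin are thus partly mixed in the ERCC-scaled values, and the part of the pool was not tested.

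In ovaries labelled nos-Gal4 sov RNAi no member was called in either direction by edgeR, against 1.09% of all features that fell and 1.53% that rose. At an unadjusted p under 0.05, 2 fell and 1 rose, against 6.05% and 6.52% of all features, and DESeq2 called no member and 3.18% of all features. ATPsynE, a small subunit of the membrane part of complex V, had the lowest adjusted p, 0.34, with a change of -0.21 (SE 0.09). The member median was -0.10 against 0.00 over all features, and 46 members had a negative value. ND-MLRQ was at 212.0, 196.9 and 216.3 CPM against 194.3, 192.0 and 197.5 CPM, a change of -0.10 (SE 0.13). Muscle sums were 876.9 CPM with mCherry and 875.6 CPM with the sov hairpin. Germline sums were 2142 and 1921 CPM in the same order, with no marker called. The fat body marker apolpp fell by 2.87 (SE 0.46, adjusted p = 0.00095 by edgeR), and fat body sums were 37.9 and 5.51 CPM. The part of these markers in the nos-Gal4 values was not tested.

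The drivers themselves were compared by interaction contrasts, and no member passed the test (edgeR) between any pair of drivers. Over all features 4.87% differed between nos-Gal4 and tj-Gal4, 1.3% between da-Gal4 and nos-Gal4 and 10.7% between da-Gal4 and tj-Gal4. At an unadjusted p under 0.05, 1 member was lower and 1 higher in nos-Gal4 against tj-Gal4 and 1 was lower in each of the others, against 16.2%, 12.1% and 25.5% of all features in the order above. DESeq2 called no member, and 5.82%, 2.39% and 11.9% of all features. The lowest adjusted p was 0.13, for ND-B22 between da-Gal4 and tj-Gal4. Scaled to ERCC counts, 54 members differed between nos-Gal4 and tj-Gal4, 50 between da-Gal4 and tj-Gal4 and none between da-Gal4 and nos-Gal4, while 79.5%, 63.9% and 0.662% of all features did, so most features differed as well where the members did. The uneven ERCC pools under tj-Gal4 enter the ERCC-scaled contrasts with that driver, and their part was not tested. The member called under tj-Gal4 and not under nos-Gal4, ND-MLRQ, had a difference of 0.36 between those drivers, which was not called.

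The members varied together across genotypes. As a description over the 30 genotypes, which share their depth scaling and in part their chromosomes, the mean log2 levels of any 2 complexes had Pearson correlations of 0.90 to 0.96. The correlation of a member with the mean of the other members of its complex had a median of 0.74 in complex I, 0.70 in complex III and 0.84 in complexes IV and V. It was highest for ATPsyndelta, a subunit of the central stalk, at 0.95. ND-15 had the lowest value, 0.26, and ND-20 the next, 0.45. ND-15 ran from 41.3 to 53.7 CPM in controls, from 35.4 to 54.0 CPM in fertile mutants and from 44.1 to 54.8 CPM in sterile mutants, so the classes overlapped.

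The members with the largest falls shared a position that their symbols do not show. This grouping was made after the values were seen and is given without a test. ND-MLRQ (3L:23339326-23345936, plus strand), ND-AGGG (3L:24976254-24977118, plus strand) and UQCR-11 (3L:25120709-25126171, plus strand, BDGP6) are the members that start beyond 23 Mb on arm 3L, toward the centromere, and they held the 3 largest falls in sterile mutants. ATPsynbeta (4:1031484-1034917, plus strand) and ND-49 (4:568296-571554, minus strand) are the members on chromosome 4, and ATPsynbeta held the next largest. Their changes were -0.66, -0.54, -0.74, -0.50 and -0.29 in the order named.

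In sterile mutants the other genes tested in the same places moved less on the whole, though their medians were also negative. The 28 others on proximal 3L had a median of -0.18 in sterile mutants, with 13 that fell and 7 that rose. The 73 others on chromosome 4 had a median of -0.13, with 29 that fell and 18 that rose. Over all features 19.8% fell and 24.6% rose, so a larger share fell in both places. Elsewhere the other genes had medians from -0.01 to 0.02 by arm, and the members had medians from -0.24 on 2R to -0.10 on X. In fertile mutants the 3 proximal members had values of -0.28, -0.12 and -0.40, none of them called. Under the hairpins the 3 did not move together: ND-MLRQ was at -0.41, -0.10 and -0.46 under da-Gal4, nos-Gal4 and tj-Gal4, ND-AGGG at 0.48, -0.56 and 0.06, and UQCR-11 at 0.02, -0.37 and 0.26. On chromosome 4 under da-Gal4, ATPsynbeta was at -0.46 and ND-49 at -0.15. The 67 others tested there had a median of -0.34. Of these 67, 28 fell and 3 rose, against 11% and 10.1% of all features. Under nos-Gal4 and tj-Gal4 the same others had medians of -0.16 and -0.10. Of them 10 and 2 fell, against 1.09% and 2.53% of all features. The plot by chromosome position gives all 57 members in sterile mutants.

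**Figure D5:**
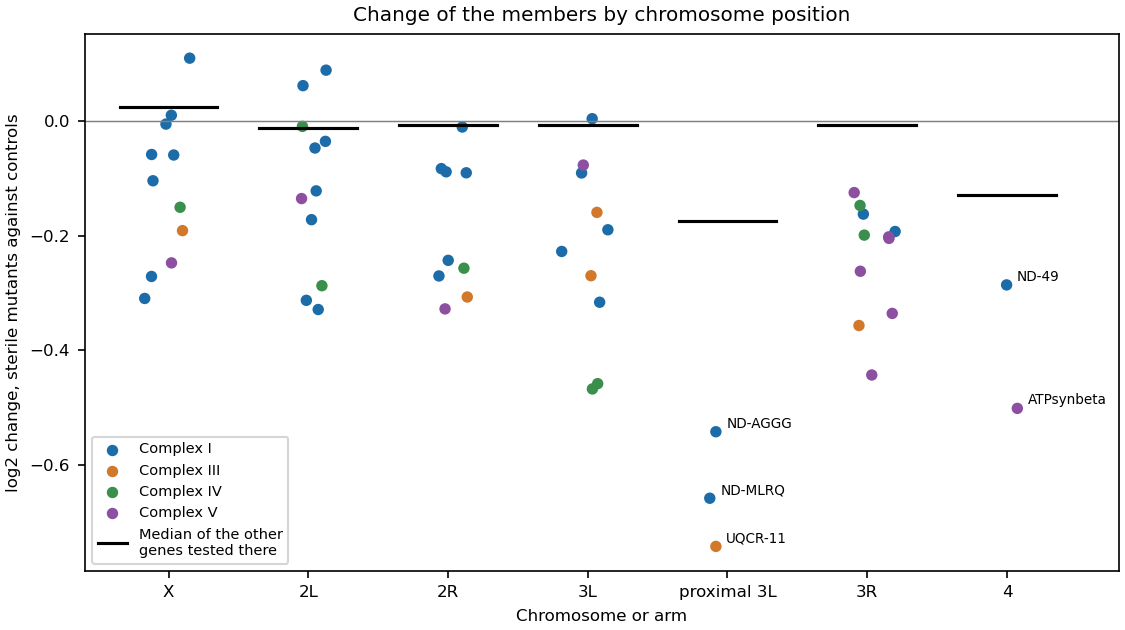
Log2 change of each member in sterile mutants against controls (circles, coloured by complex) by chromosome or arm, with genes that start beyond 23 Mb on 3L set apart as proximal 3L; bars are medians of the other genes tested there. The 3 proximal members lie at -0.74 to -0.54, below every other member.

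Genes of the same pathway outside the symbol rule gave the following counts in sterile mutants against controls, where 19.8% of all features fell and 24.6% rose. Of complex II, which feeds electrons from succinate, 4 genes were tested, SdhB rose by 0.17 and SdhA, SdhC and SdhD had values of -0.15, 0.12 and -0.07. Of 5 subunits of complexes III and IV under other symbols 4 fell, among them levy, a complex IV subunit, at -0.44, the Rieske iron-sulphur protein RFeSP at -0.17 and cytochrome c1 (Cyt-c1) at -0.28. The ATP synthase alpha subunit blw and the small subunit sun fell by 0.28 and 0.42. Of 13 genes of the mitochondrial genome none fell and 3 rose, mt:ND2 by 1.04, mt:ND6 by 0.96 and mt:ATPase6 by 0.36, a share near that of all features, while mt:CoI, mt:CoII, mt:CoIII and mt:Cyt-b had values from -0.13 to -0.06. Their sum ran from 8531 to 11180 CPM in controls and from 6839 to 13232 CPM in sterile mutants.

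Other mitochondrial lists are read against the same shares of 19.8% and 24.6%. Of 71 mitochondrial ribosomal proteins 12 fell and none rose (median -0.14), a share of falls below that of all features. Of 15 citrate cycle genes 6 fell and 2 rose (median -0.15), of 8 import genes 6 fell, and of 8 genes for mitochondrial DNA upkeep and transcription 4 fell. Of 10 assembly factors 2 fell and 1 rose, a share of falls close to that of all features. Outside the mitochondrion, of 12 glycolysis genes 4 fell and 1 rose (median -0.14), and of 86 cytoplasmic ribosomal proteins 63 fell and 2 rose (median -0.36). In fertile mutants the same ribosomal proteins had a median of -0.26 with 2 that fell, and the mitochondrial ones a median of -0.05 with 1 that fell.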

How the data were processed

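PolyA RNA of 90 ovary libraries was analysed from the deposited counts: whole-number reads per gene, transposable element family and ERCC spike-in, unnormalized. Per the submitters' processing notes, CASAVA 1.8.2, HISAT2 2.0.5 and HTSeq 0.7.2 were used; genome build and strand setting are not given in the sources used here. Unassigned reads (12.6 to 63.1% of a library's entries) were left out of library sizes. Symbols and exon lengths came from Ensembl 115 (BDGP6), and 17365 of 17493 genes matched.

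Counts were tested with edgeR 4.0.16 in R 4.3.3 (trimmed-mean scaling, filterByExpr, quasi-likelihood, Benjamini-Hochberg over all features): 1 fit of the 24 allelic genotypes, each summed over libraries, and 1 of the 18 RNAi libraries. DESeq2 1.42.0 was an alternative. Changes by genotype came from a fit of the 72 allelic libraries and carry no calls. CPM in the text are scaled likewise. Correlations used log2(CPM + 1). Depth sets precision: 3 libraries hold under 100000 counts. Scripts were tested on simulated data for sterile mutants against controls and for nos-Gal4, with log2 changes of 1 or 2 in size. Of the changes of 1, 76% and 85% were recovered in the order named. Smaller changes and the interaction contrasts were not simulated.

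Named genes are, per comparison, the 3 called members of each complex with the largest change, members called against the majority, the 2 highest per length of each complex and the 2 with the lowest co-variation, plus ones named for position after their values were seen. The members, gene lists and tests were chosen with earlier results of these data known. Alternatives were other scalings (DESeq2 size factors, ERCC counts), no low-count filter, DESeq2, leaving out low-depth libraries or each genotype or library in turn, summing genotypes with the same alleles, and a replicate block.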

Additional observations from a re-analysis of the deposited data

Results flagged for a closer look

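Levels of the named members and of the complex medians were examined in each class for a single genotype set apart from the rest, by the gap to its nearest neighbour over the range of the class. Of 84 such groups 6 stood out, and chance alone gives about 1 in 20. KG00226/w1118 was apart as the highest control for ND-B17.2, at 65.6 CPM beside a next value of 51.4 CPM, and for COX7B, at 157.3 CPM beside 136.4 CPM. The control sovML150/w1118 was apart for ND-ACP at 176.2 CPM, with the next control at 153.2 CPM. Among fertile mutants NP6070/KG00226 was the lowest for COX8 at 77.0 CPM, with the next at 92.3 CPM. Among sterile mutants NP6070/NP6070 was the highest for UQCR-14 at 106.9 CPM, with the next at 82.5 CPM, and for COX6B, at 275.2 CPM with the next at 189.3 CPM.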

How the results depend on the processing

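In sterile mutants against controls all 33 calls held under the 6 alternatives other than leave-outs, which gave 33 to 57 members that fell (57 with ERCC scaling), and leave-outs gave 28 to 38; no member rose under any. The fertile count of 7 became 0 with ERCC scaling, 4 without the low-count filter and 14 with DESeq2. It was 0 with genotypes of the same alleles summed, which left 7 controls and 4 fertile mutants. Falls over all features in these settings were 14 of 8449, 83 of 15283, 208 of 8449 and 21 of 9124. For the fertile count, leave-outs gave 2 to 9. In sterile against fertile mutants 7 fell and 2 rose. These became 57 and 0 with ERCC scaling, 12 and 1 without the filter, and 2 and 1 with same alleles summed. Over all features 7324 fell and 281 rose of 8449, 1672 and 3024 of 15283, and 846 and 1698 of 9124 in that order. For the members, leave-outs gave 2 to 16 and 1 to 4. Under da-Gal4 the count was 0 with ERCC scaling and 8 without the filter, with leave-outs 0 to 13. Under tj-Gal4 it was 57 with ERCC scaling and 2 without the filter, with DESeq2 and with the replicate block, with leave-outs 0 to 3. The interaction counts were 54 for nos-Gal4 against tj-Gal4 and 50 for da-Gal4 against tj-Gal4 with ERCC scaling, and 0 to 1 in leave-outs for da-Gal4 against nos-Gal4 and against tj-Gal4. With ERCC scaling the 7 fertile calls changed sign (ND-49 0.20, ND-B15 0.15, ND-B14.5B 0.11, UQCR-14 0.11, UQCR-C2 0.17, COX5B 0.073, ATPsynO 0.12), as did ND-B17 and ND-20 in sterile against fertile mutants (both -1.53). The cause of these shifts was not tested.

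Replicate numbers of the RNAi libraries are not shown to pair samples: correlations of same-numbered deviations ran from -0.24 to 0.35. With the replicate block 4, 0 and 2 members fell under da-Gal4, nos-Gal4 and tj-Gal4. Leaving out the 3 low-depth libraries gave the same 57 members and 33, 7 and 8 that fell in the 3 class comparisons. Within ERCC pools, taken from the labels, the median member difference of sterile from control libraries was -0.22 in pool 78A and -0.17 in pool 78B, and of fertile ones -0.13 in both. Depth limits ND-AGGG most.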
